A study of Drosophila melanogaster with 18 samples.

Results

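Copia and Pao (also called BEL/Pao) are families of retrotransposons, mobile elements that copy themselves through an RNA. Each element has an internal part, which encodes the Gag and Pol proteins, between a pair of long terminal repeats (LTRs), and the LTR holds the promoter from which the whole element is transcribed. In the Drosophila germline, Piwi, a nuclear Argonaute protein guided by small RNAs called piRNAs, silences such elements at the level of transcription, and mothers place both Piwi and piRNAs in the egg. The elements described here are all 27 repeat entries of the RNA table whose class is LTR and whose family is not Gypsy, out of 226 repeat entries and 17994 rows in all. The Pao family gave 17 of them, as internal part and LTR of BATUMI, BEL, DIVER, DIVER2, MAX, NINJA, ROO and ROOA and the internal part of TRAM. The Copia family gave 10, as internal part and LTR of Copia, Copia1, Copia2, DM1731 and FROGGER, and no other family met the rule.

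RNA was measured in 9 libraries from whole Drosophila melanogaster embryos of 0 to 1.5 h kept at 25 °C, 3 libraries in each of 3 groups. In GFP-MatKD, the control, the maternal genotype was 41550/MAT-Gal4. In Piwi-MatKD_1 it was 37483/MAT-Gal4 and in Piwi-MatKD_2 it was THU/MAT-Gal4, and in all groups fathers were w1118. MAT-Gal4 is the maternal driver of a hairpin RNA, so the controls too carried the driver and a hairpin, named for GFP; each group is a single fly line, and each collection cage held many females. The growth protocol instead puts the hairpin in the females and the driver in the males, which leaves the direction of the cross uncertain. Since each group is also a line of its own, more element copies in a line and more RNA per copy cannot be told apart, and in whole embryos more cells with an RNA and more RNA per cell cannot be told apart either. Nothing states that libraries of a group came from separate collections, so p-values measure the spread between these libraries, which may be technical.

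Depth, in M (mega) reads, was 45.0, 16.5 and 32.9 for GFP-MatKD replicates 1 to 3 and 61.2, 20.2 and 38.8 for those of Piwi-MatKD_1. It was 21.6, 8.52 and 73.0 for Piwi-MatKD_2, whose libraries are named below by these totals. Values are normalised reads per entry, the unit of the deposited table, and are not per length. The target of the knockdown, piwi, stood between 7963 and 9360 normalised reads in GFP-MatKD and between 87.7 and 646 in the 6 Piwi-MatKD libraries. The Piwi-MatKD_2 libraries of 21.6 and 8.52 M reads stood apart: genes of cytoplasmic ribosomal RNA took 10.9% and 5.90% of their reads, against 0.182% to 0.535% in the other 7. Early zygotic genes, the first that an embryo transcribes, stood apart too in Piwi-MatKD_2. There 6 of 19 were past the limma threshold, all lower (DESeq2 called 16), and 0 of 19 were in Piwi-MatKD_1. Of all features, limma called 3.04% in Piwi-MatKD_2 (DESeq2 8.36%) and 0.186% in Piwi-MatKD_1. The 19 early zygotic genes, of 20 listed, summed to 543 to 2200 normalised reads in Piwi-MatKD_2, 3309 to 6478 in GFP-MatKD and 2736 to 4985 in Piwi-MatKD_1. Muscle genes of late embryos, 10 of 10 found, summed to 1911 in Piwi-MatKD_1 replicate 2 and to between 32.2 and 132 in the other 8 libraries. Among 11 of 12 egg shell genes found, a sign of follicle cells of the ovary, the sum was at most 9.41, and Cp15, Cp16, Cp19, Vm26Ab, Vm32E and Vm34Ca were at 0 in every library. None of the muscle and egg shell genes tested, 5 and 2, passed in limma, DESeq2 or edgeR.

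All Pao and Copia entries together took between 0.0230% and 0.0243% of the reads of a GFP-MatKD library. In Piwi-MatKD_1 the share was 0.0603%, 0.0355% and 0.0445%, and in Piwi-MatKD_2 it was 0.0664%, 0.0434% and 0.0286%. For the library with the fewest such reads, that of 8.52 M reads, the 95% Wilson interval ran from 0.0420% to 0.0448%, which covers counting error only. Every Piwi-MatKD library thus lay above every control, and the Piwi-MatKD_2 library of 73.0 M reads lay nearest to them. Their summed normalised reads came to 6639 ± 204 in the controls (SD over 3 libraries), to 13058 ± 3067 in Piwi-MatKD_1 embryos and to 14890 ± 7234 in those of Piwi-MatKD_2. The Gypsy entries, the other LTR family in the table, summed to 10706 ± 146, 17891 ± 3397 and 16903 ± 7616 in the same order, and DNA transposons to 3227 ± 22.6, 3244 ± 854 and 3148 ± 1401. LINE elements, retrotransposons without LTRs, summed to 559018 and 267967 in the ribosomal RNA-rich pair of libraries and to between 13391 and 23929 in the other 7. For the 37 LINE entries tested in limma, the median log2 fold change in Piwi-MatKD_2 was 0.52 (from -0.53 to 4.53). The class sums thus do not describe the typical LINE entry.

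**Figure D1:**
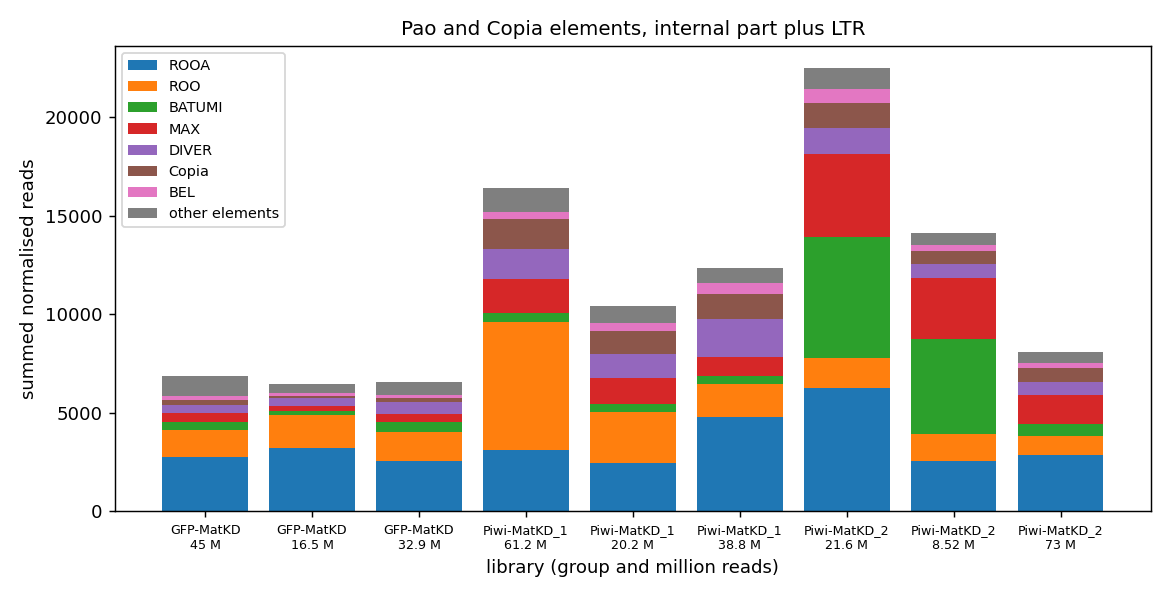
Summed normalised reads (y axis) of the internal part and LTR of each Pao and Copia element in each of the 9 RNA libraries (x axis, with M reads). ROOA and ROO made up most of the GFP-MatKD columns, and BATUMI and MAX filled much of the Piwi-MatKD_2 columns of 21.6 and 8.52 M reads.

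ROO and ROOA, a pair of related elements of the Pao family, held from 60.3% to 75.3% of the summed normalised reads of the set in GFP-MatKD. This share, which is not per length, was 58.4%, 48.4% and 52.4% in Piwi-MatKD_1 and 34.6%, 27.7% and 47.1% in Piwi-MatKD_2. The share of MAX was higher in the knockdown libraries, with 4.12% to 6.57% in the controls, 7.69% to 12.8% in Piwi-MatKD_1 and 18.2% to 22.1% in the other line. For Copia it was 1.86% to 3.81%, 9.02% to 11.2% and 4.65% to 8.60%. For both MAX and Copia, each knockdown library exceeded each control library.

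The first comparison asked which entries differed between Piwi-MatKD_1 and control embryos. Of the 27 entries, 25 reached 1 normalised read in 3 libraries or more and were tested with limma, on log2(value + 1) over 10767 genes and repeat entries. FROGGER_LTR and TRAM_I-int did not reach this and were not tested, with at most 2 reads in a library. Copia2_LTR_DM was tested with 2 reads in each Piwi-MatKD_1 library and 0 to 9 in the controls. Its mean was 1.74 normalised reads in Piwi-MatKD_1 and 1.88 in the controls, though its log2 fold change was 0.48. In Piwi-MatKD_1, 1 of 25 entries passed at an adjusted p under 0.05, Copia_I-int, which was higher; over all features 0.186% passed. At an unadjusted p under 0.05 there were 11 entries, all higher, or 44% against 2.85% of all features. Among these, BEL, Copia, DIVER, MAX and ROO each entered with both internal part and LTR, and BATUMI with its LTR. The 2 parts of an element are not independent, so counts of entries are not counts of elements. The median log2 fold change was 0.54 for the 25 entries and 0.0078 for all features, and 22 of the 25 lay above 0. In 12 entries every Piwi-MatKD_1 library stood above every GFP-MatKD library, which held for 4.79% of all features. In 1 entry, Copia1-LTR_DM, every library stood below, which held for 5.12%. DESeq2 on the recovered reads called 5 of 24 entries, all higher, the added ones being BEL_I-int, DIVER_I-int, MAX_I-int and MAX_LTR, where 0.808% of all features passed. In limma, leaving out the Piwi-MatKD_2 library of 21.6 M reads gave 3 calls, with BEL_I-int and DIVER_I-int added, where 0.273% of all features passed. Leaving out GFP-MatKD replicate 3 or any Piwi-MatKD_1 replicate gave 0, where between 0.0472% and 0.104% of all features passed and 7 to 9 entries had an unadjusted p under 0.05.

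Piwi-MatKD_2 was compared with the same 3 control libraries, so that both comparisons share them. In it 4 of 25 entries passed, all higher: Copia_I-int, MAX_I-int, MAX_LTR and BATUMI_LTR. Over all features 3.04% passed. At an unadjusted p under 0.05 there were 9 entries, all higher, or 36% against 15.3% of all features. BATUMI, BEL and MAX each entered these 9 with both parts. The median log2 fold change was 0.50 for the entries and -0.039 for all features, and 18 of the 25 were above 0. In 9 entries every Piwi-MatKD_2 library stood above every control, against 8.07% of all features, and in 0 did every library stand below, against 12.9%. The Piwi-MatKD_2 library of 73.0 M reads alone stood above every control in 9 entries too, though with 1 library 33.1% of all features did. DESeq2 called 8 of 24 entries, all higher, where 8.36% of all features passed. The added ones were BATUMI_I-int, BEL_I-int, BEL_LTR and NINJA_LTR. Without the ribosomal RNA-rich pair of libraries, 0 entries passed in limma and 6 had an unadjusted p under 0.05, where 1.34% and 13.8% of all features did; the 1 library left in the group is then assumed to vary like the others. The count was 2 without GFP-MatKD replicate 1, where 1.1% of all features passed (116, against 327 with all libraries). It was 7 without the library of 73.0 M reads, where BATUMI_I-int, BEL_I-int and NINJA_LTR were added and 2.94% of all features passed.

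**Figure D2:**
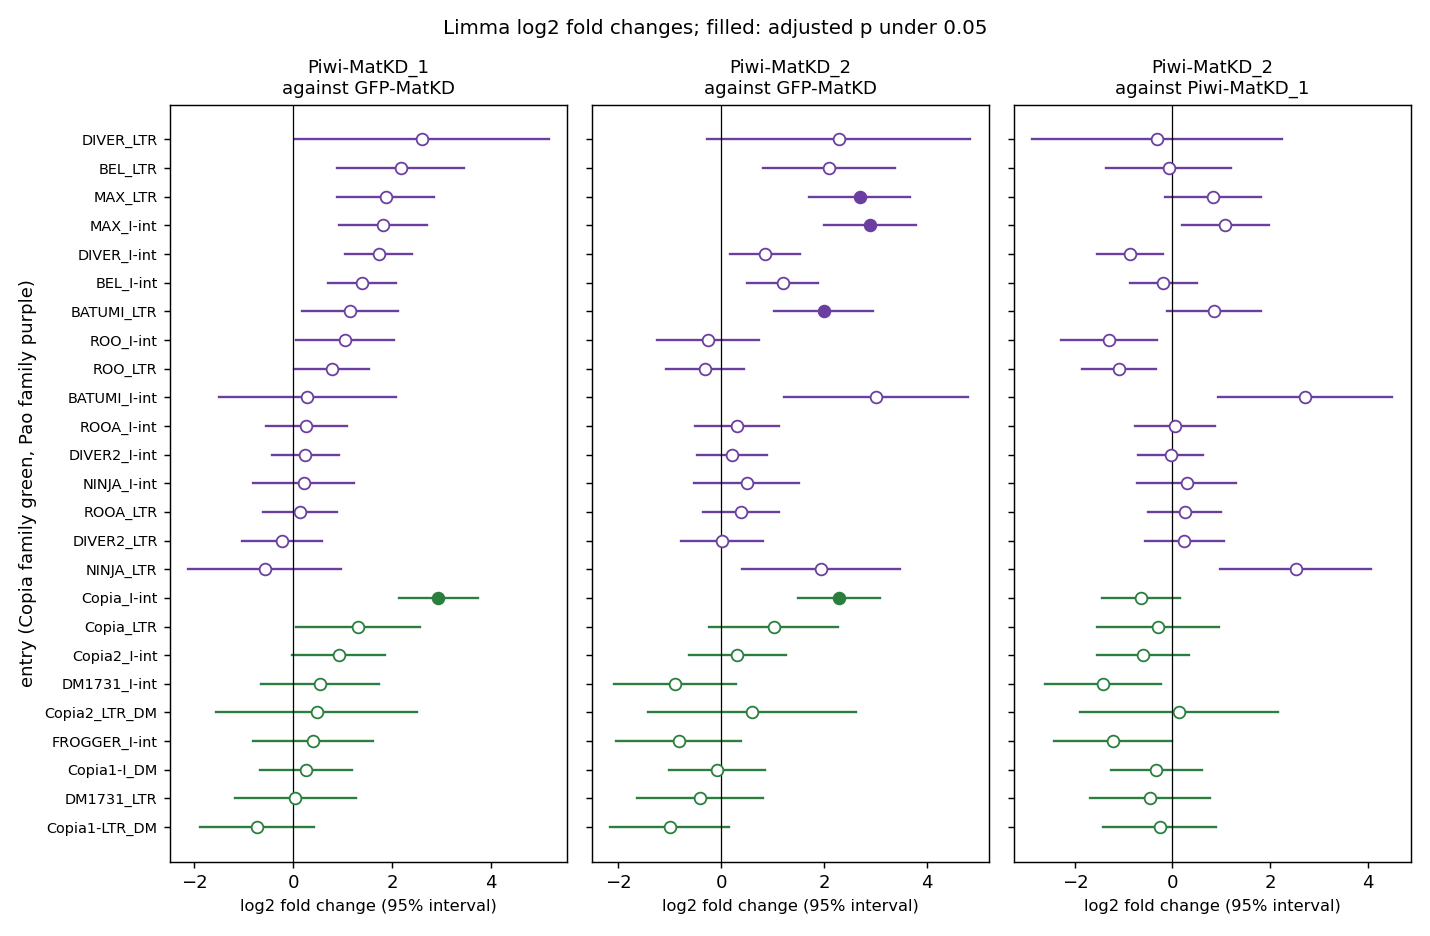
Log2 fold change from limma with its 95% interval (x axis) for the 25 tested entries (y axis, Copia family in green and Pao family in purple) in the 3 comparisons; filled points had an adjusted p under 0.05. Most Pao points lay above 0 against GFP-MatKD, and no point was filled between the lines.

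The internal part of Copia, the element that gave its family its name for its abundant RNA, was higher in both lines. In GFP-MatKD it stood at 253, 100.1 and 174 normalised reads, in Piwi-MatKD_1 at 1455, 1111 and 1240, and in Piwi-MatKD_2 at 1210, 637 and 679. All 6 knockdown libraries lay far above all 3 controls, and the library of 21.6 M reads lay within the Piwi-MatKD_1 range. The log2 fold change was 2.94 in Piwi-MatKD_1 (SE 0.35, adjusted p 0.0124 in limma) and 2.29 in Piwi-MatKD_2 (SE 0.35, adjusted p 0.00956). Without the ribosomal RNA-rich pair it was 2.04 in Piwi-MatKD_2 (adjusted p 0.109 in limma), the highest p of 19 alternatives, which started at 6.25e-08. In Piwi-MatKD_1 the adjusted p in limma was 0.0747 without GFP-MatKD replicate 3, and 0.113, 0.0618 and 0.0654 without Piwi-MatKD_1 replicates 1, 2 and 3, with log2 fold changes from 2.83 to 3.03.

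Copia_LTR held between 5 and 60 reads per library and had smaller fold changes. Its values were 8.80, 20.4 and 11.3 normalised reads in GFP-MatKD, 26.7, 52.2 and 25.8 in Piwi-MatKD_1, and 59.6, 19.1 and 16.6 in Piwi-MatKD_2. The Piwi-MatKD_1 libraries lay above the controls, while those of Piwi-MatKD_2 overlapped them. Neither log2 fold change passed, at 1.31 (SE 0.55, adjusted p 1.00 in limma) and 1.02 (SE 0.55, adjusted p 0.454). The LTR thus gave 3.37% to 16.9% of the reads of the element in the controls, 1.80% to 4.48% in Piwi-MatKD_1 and 2.39% to 4.70% in Piwi-MatKD_2.

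MAX, a Pao element, was the Pao entry with the lowest adjusted p in Piwi-MatKD_2. Its internal part stood at 354, 231 and 349 normalised reads in GFP-MatKD, at 1429, 1134 and 775 in Piwi-MatKD_1 and at 3490, 2848 and 1199 in Piwi-MatKD_2. The knockdown libraries all exceeded the controls, and the highest values were in the ribosomal RNA-rich pair. The log2 fold change was 2.90 in Piwi-MatKD_2 (SE 0.40, adjusted p 0.00557 in limma) and 1.82 in Piwi-MatKD_1 (SE 0.40, adjusted p 0.310). Without that pair the value in Piwi-MatKD_2 was 1.97 (adjusted p 0.0686 in limma, the highest of 19 alternatives, from 8.52e-12), close to that of Piwi-MatKD_1.

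MAX_LTR followed the same order, with 62.8, 35.6 and 83.3 normalised reads in GFP-MatKD, 268, 201 and 176 in Piwi-MatKD_1 and 712, 275 and 271 in Piwi-MatKD_2. The groups did not overlap: every Piwi-MatKD_2 library lay above every Piwi-MatKD_1 library, and these above every control. The lines lay close, with a lowest value of 271 in Piwi-MatKD_2 and a highest of 268 in Piwi-MatKD_1. Between them MAX_LTR did not pass (0.83, 95% interval -0.16 to 1.81, adjusted p 0.457 in limma). Against GFP-MatKD the log2 fold changes were 2.69 in Piwi-MatKD_2 (SE 0.44, adjusted p 0.0122 in limma) and 1.87 in Piwi-MatKD_1 (SE 0.44, adjusted p 0.422). In Piwi-MatKD_2 the call was lost without GFP-MatKD replicate 1 (2.76, adjusted p 0.0556 in limma) and without the ribosomal RNA-rich pair (2.23, adjusted p 0.0984), in a range from 1.18e-07 to 0.0984 over 19 alternatives.

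**Figure D3:**
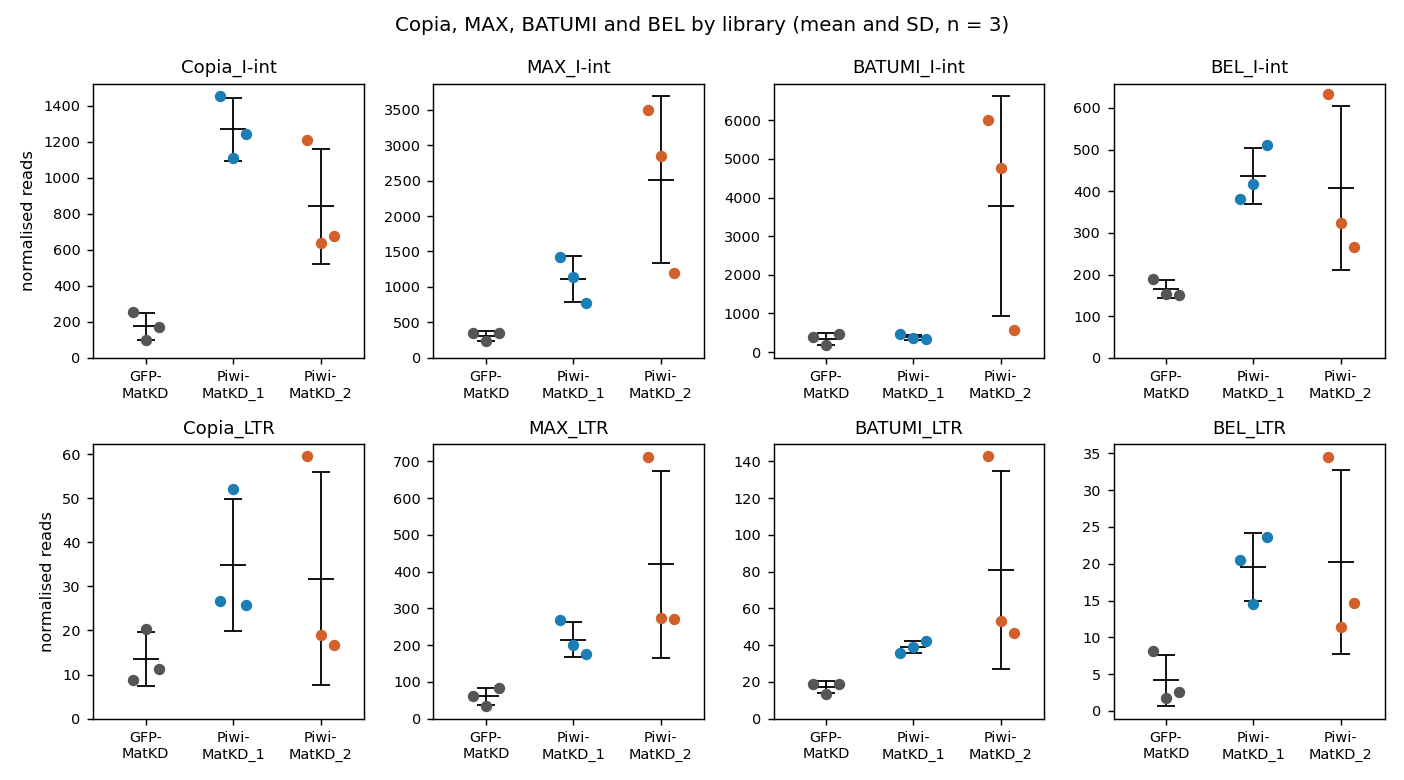
Normalised reads (y axis, linear from 0) of the internal part (top) and LTR (bottom) of Copia, MAX, BATUMI and BEL in the 3 libraries of each group (x axis), with mean and SD. Copia_I-int, MAX_I-int, MAX_LTR, BEL_I-int, BEL_LTR and BATUMI_LTR were above every control library in all 6 knockdown libraries, and BATUMI_I-int reached 6009 and 4759 in 2 Piwi-MatKD_2 libraries.

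BATUMI, another Pao element, was higher in Piwi-MatKD_2 at its LTR, and its internal part varied widely within that group. BATUMI_LTR stood at 18.8, 13.6 and 19.1 normalised reads in GFP-MatKD, 35.6, 39.1 and 42.3 in Piwi-MatKD_1 and 143, 53.4 and 46.4 in Piwi-MatKD_2, from 8 to 120 reads. The 3 groups did not overlap, though between the lines BATUMI_LTR did not pass (0.85, 95% interval -0.12 to 1.81, adjusted p 0.431 in limma). It rose in Piwi-MatKD_2 by a log2 fold change of 2.00 (SE 0.43, adjusted p 0.0430 in limma), and in Piwi-MatKD_1 the value was 1.15 (SE 0.43, adjusted p 1.00). This call was the least stable of the 5: 10 of 19 alternatives did not pass. Among these were the fits without GFP-MatKD replicates 1, 2 and 3 (adjusted p 0.142, 0.144 and 0.129 in limma), without Piwi-MatKD_1 replicates 1, 2 and 3 (0.0798, 0.0681 and 0.0531), without the library of 8.52 M reads of Piwi-MatKD_2 (0.0569) and without the ribosomal RNA-rich pair (0.163). The range over alternatives was 4.91e-04 to 0.163.

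The internal part of BATUMI stood at 386, 171 and 471 normalised reads in GFP-MatKD, 460, 364 and 338 in Piwi-MatKD_1 and 6009, 4759 and 569 in Piwi-MatKD_2. Only the ribosomal RNA-rich pair was far above the rest; the Piwi-MatKD_2 library of 73.0 M reads lay just above the highest control. The log2 fold change in Piwi-MatKD_2 was 3.0 (SE 0.79, adjusted p 0.0910 in limma), 0.85 without the pair (adjusted p 0.521) and 4.08 without the library of 73.0 M reads (adjusted p 0.00264), in a range from 8.51e-06 to 0.521 over 19 alternatives. In Piwi-MatKD_1 it was 0.28 (SE 0.79, adjusted p 1.00). This SE is shared by the 3 groups and so carries the wide spread of Piwi-MatKD_2. There the SD was 75.4% of the mean, against 45.1% in GFP-MatKD and 16.5% in Piwi-MatKD_1. The part of ribosomal RNA content in the BATUMI and MAX values was not tested.

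BEL, the element for which BEL/Pao is named, had higher values in every knockdown library but did not pass in limma. BEL_I-int stood at 190, 154 and 152 normalised reads in GFP-MatKD, 382, 417 and 512 in Piwi-MatKD_1 and 634, 324 and 267 in Piwi-MatKD_2. In Piwi-MatKD_1 the log2 fold change was 1.39 (SE 0.31, adjusted p 0.315 in limma), and for Piwi-MatKD_2 it was 1.2 (SE 0.31, adjusted p 0.0801). In Piwi-MatKD_1, 4 of 20 alternatives passed, among them the fit that left out the 21.6 M library of Piwi-MatKD_2 (adjusted p 0.0166 in limma), in a range from 0.00617 to 1.00. In Piwi-MatKD_2, 2 of 19 passed, among them the fit without the library of 73.0 M reads (1.46, adjusted p 0.0492 in limma), in a range from 0.00273 to 0.278. BEL_LTR held only 1 to 13 reads in the controls, and its values were 8.17, 1.70 and 2.60 normalised reads there, 20.4, 14.5 and 23.6 in Piwi-MatKD_1 and 34.5, 11.4 and 14.7 in Piwi-MatKD_2. All knockdown libraries were higher, with log2 fold changes of 2.17 (SE 0.57, adjusted p 0.635 in limma) and 2.09 (SE 0.57, adjusted p 0.0996). DESeq2 called BEL_LTR in Piwi-MatKD_2 (adjusted p 0.0499) and not in Piwi-MatKD_1 (0.328).

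No other Pao entry passed in limma, and those named next were chosen after their values were seen. DIVER_I-int stood at 391, 402 and 566 normalised reads in GFP-MatKD, 1487, 1146 and 1906 in Piwi-MatKD_1 and 1276, 652 and 639 in Piwi-MatKD_2. No knockdown library overlapped a control, and the log2 fold change was 1.73 in Piwi-MatKD_1 (SE 0.30, adjusted p 0.101 in limma), and it was 0.86 in Piwi-MatKD_2 (SE 0.30, adjusted p 0.206). DESeq2 called this entry in Piwi-MatKD_1 (adjusted p 5.10e-05) and not in Piwi-MatKD_2 (0.0639), and limma did so in Piwi-MatKD_1 without the library of 21.6 M reads. DIVER_LTR was at 21.4, 0 and 36.5 in GFP-MatKD, 58.2, 52.2 and 58.0 in Piwi-MatKD_1 and 64.3, 45.8 and 30.9 in Piwi-MatKD_2; with the 0 among the controls its log2 fold changes of 2.60 and 2.29 had a SE of 1.13.

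ROO, one of the most abundant LTR elements of the Drosophila genome, set 1 library of Piwi-MatKD_1 apart. ROO_I-int stood at 1188, 1483 and 1289 normalised reads in GFP-MatKD, 5925, 2364 and 1439 in Piwi-MatKD_1 and 1326, 1251 and 812 in Piwi-MatKD_2. Replicate 1 of Piwi-MatKD_1 was far above all other libraries, replicate 3 lay within the control range, and none of the Piwi-MatKD_2 libraries exceeded that range. ROO_LTR stood at 209, 199 and 165 in the controls, 566, 243 and 253 in Piwi-MatKD_1, all above them, and 198, 130 and 140 in Piwi-MatKD_2. The log2 fold changes of the internal part were 1.05 in Piwi-MatKD_1 (SE 0.44, adjusted p 1.00 in limma) and -0.25 in Piwi-MatKD_2 (SE 0.44, adjusted p 0.899). ROOA, with 1785 to 2277 normalised reads in its internal part in the controls, 1770 to 3526 in Piwi-MatKD_1 and 1697 to 4478 in Piwi-MatKD_2, overlapped in all groups, with log2 fold changes of 0.26 and 0.31 (SE 0.36).

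NINJA and DIVER2 stayed nearer to the controls, apart from the LTR of NINJA. NINJA_LTR stood at 17.0, 8.48 and 14.8 normalised reads in GFP-MatKD, 9.78, 10.1 and 5.73 in Piwi-MatKD_1 and 149, 53.4 and 17.8 in Piwi-MatKD_2. As with BATUMI_I-int, the ribosomal RNA-rich pair was highest and the library of 73.0 M reads lay just above the controls. Its log2 fold change in Piwi-MatKD_2 was 1.95 (SE 0.68, adjusted p 0.205 in limma), and DESeq2 called it there (adjusted p 0.0218). The LTR gave 23.5% to 48.0% of the element's reads in Piwi-MatKD_2, against 13.4% to 17.9% in GFP-MatKD and 7.84% to 10.1% in Piwi-MatKD_1. NINJA_I-int overlapped between all groups, from 39.0 to 161.6 normalised reads over the 9 libraries, and so did DIVER2_I-int, from 94.2 to 177, and DIVER2_LTR, from 7.24 to 15.7. TRAM_I-int had 1 read in 2 libraries and none in the other 7.

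**Figure D4:**
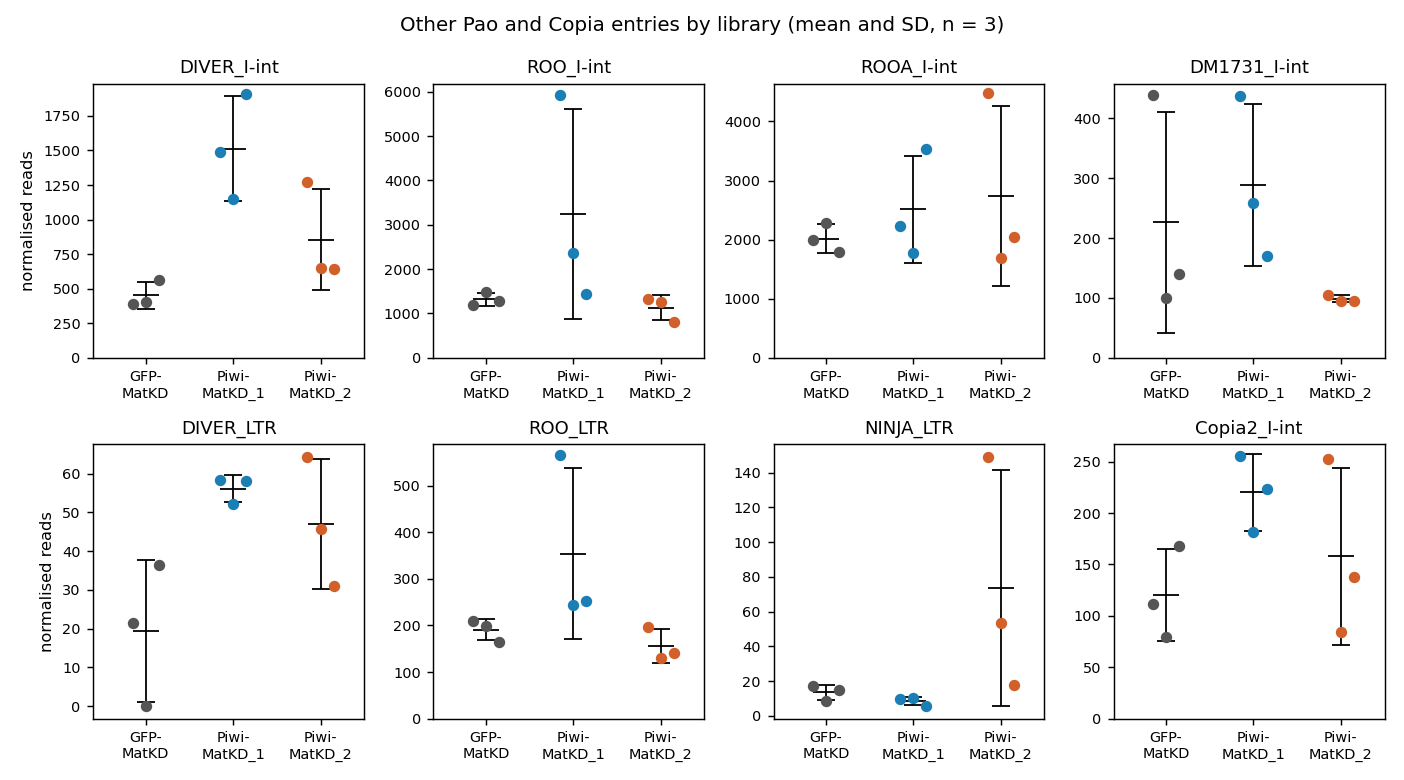
Normalised reads (y axis, linear from 0) of further Pao and Copia entries in the 3 libraries of each group (x axis), with mean and SD. ROO_I-int reached 5925 in 1 Piwi-MatKD_1 library, and DM1731_I-int lay between 95.3 and 105 in Piwi-MatKD_2.

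The Copia family outside Copia itself showed no entry past the threshold. DM1731 is the 1731 element, known from cultured Drosophila cells as one whose RNA falls under the moulting hormone ecdysone. Its internal part stood at 438, 100.1 and 141 normalised reads in GFP-MatKD, 437, 258 and 171 in Piwi-MatKD_1 and 105, 95.3 and 95.6 in Piwi-MatKD_2. The controls spanned the whole Piwi-MatKD_1 range, and the Piwi-MatKD_2 libraries lay close together, near the lowest control. Copia2_I-int stood at 112, 79.8 and 168 in GFP-MatKD, 256, 181 and 224 in Piwi-MatKD_1 and 253, 83.9 and 138 in Piwi-MatKD_2, so that Piwi-MatKD_1 lay above the controls (log2 fold change 0.92, SE 0.41, adjusted p 1.00 in limma). Copia1-LTR_DM, with 1 to 40 reads per library, was the entry with the lowest fold change in both lines, at -0.73 (SE 0.51, adjusted p 1.00 in limma) and -1.0 (SE 0.51, adjusted p 0.417). Copia1-I_DM, at 71.7 to 188 over all libraries, DM1731_LTR, at 11.4 to 48.6, and Copia2_LTR_DM, at 0 to 5.65, overlapped between groups. FROGGER_I-int was at 17.0 to 22.6 in the controls, 24.6 to 30.8 in Piwi-MatKD_1 and 3.81 to 22.0 in Piwi-MatKD_2, so that Piwi-MatKD_1 stood above both other groups.

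By family, 0 of 16 Pao entries passed in Piwi-MatKD_1 with limma and 3 in Piwi-MatKD_2, where 0.186% and 3.04% of all features did, and their medians were 0.92 and 1.03 on the log2 scale. These counts depend on the shared spread. With only the libraries of both groups, limma called BEL_I-int and DIVER_I-int in Piwi-MatKD_1, where 0.267% of all features passed. In Piwi-MatKD_2 that fit called the Pao entries MAX_I-int and MAX_LTR, where 2.09% passed. With all 9 libraries there were 9 and 8 Pao entries at an unadjusted p under 0.05, all higher, where 2.85% and 15.3% of all features passed. DESeq2 called 4 and 7 of the 16, all higher, where 0.808% and 8.36% of all features passed. With edgeR the counts were 0 and 4, where 0.22% and 3.77% of all features passed. Of 9 Copia entries, 1 passed in each line, with medians of 0.48 and -0.075. In the same comparisons 4 of 104 Gypsy entries were higher and 0 lower in Piwi-MatKD_1, and 8 were higher and 5 lower in Piwi-MatKD_2, with medians of 0.22 and 0.38. LINE elements gave 2 and 4 of 37 higher and none lower, with medians of 0.059 and 0.52. Of 28 DNA transposons 0 passed in limma in either line, with 1 and 3 at an unadjusted p under 0.05. Whether the Pao or Copia family differed from these sets was not tested. Internal parts and LTRs of the set had medians of 0.54 and 0.63 in Piwi-MatKD_1 and 0.32 and 0.81 in Piwi-MatKD_2, over 13 and 12 entries.

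**Figure D5:**
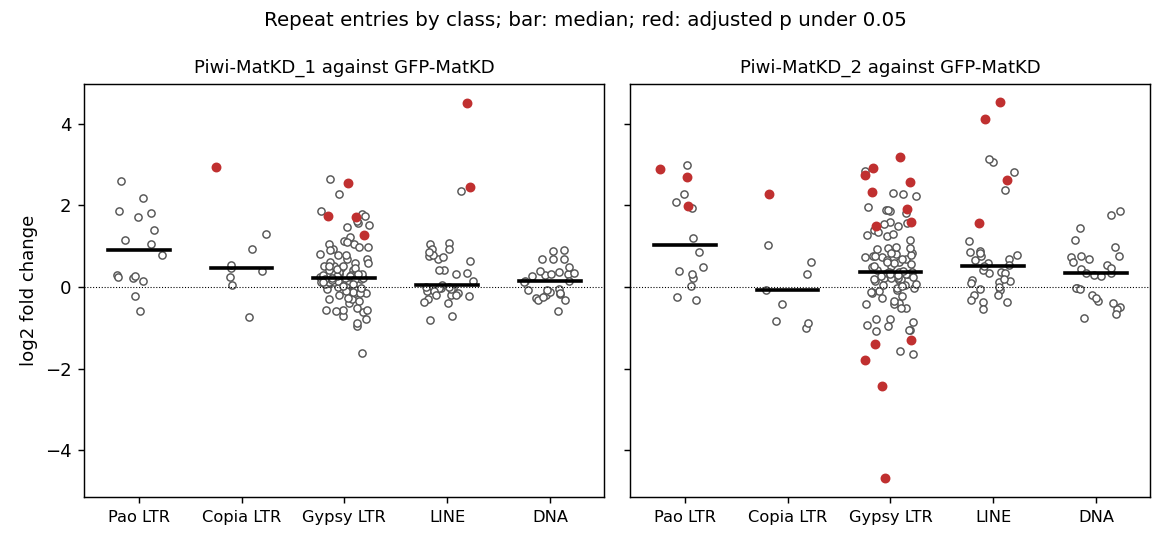
Log2 fold change (y axis) of each tested repeat entry, by class (x axis), in Piwi-MatKD_1 (left) and Piwi-MatKD_2 (right) against GFP-MatKD; bars are medians and red points had an adjusted p under 0.05. All red points of the Pao and Copia columns lay above 0, while the Gypsy column of Piwi-MatKD_2 held 5 below 0.

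Piwi-MatKD_2 was then compared with Piwi-MatKD_1, which tests whether the effects of both lines differed. In limma 0 of 25 entries passed, where 2.22% of all features did. At an unadjusted p under 0.05, 3 entries had a positive and 5 a negative difference, or 32% against 14.2% of all features, and edgeR called 0. Leaving out 1 library added ROO_I-int without Piwi-MatKD_1 replicate 3, DIVER_I-int without the library of 21.6 M reads, and BATUMI_I-int, MAX_I-int and NINJA_LTR without that of 73.0 M reads, where 3.21%, 2.36% and 2.43% of all features passed in turn. DESeq2 called 5 of 24, with BATUMI_I-int, MAX_I-int and NINJA_LTR higher and ROO_I-int and ROO_LTR lower in Piwi-MatKD_2, where 7.49% of all features passed. In 4 entries, BATUMI_I-int, BATUMI_LTR, MAX_LTR and NINJA_LTR, every Piwi-MatKD_2 library lay above every Piwi-MatKD_1 library, against 5.99% of all features. In 4 others, ROO_I-int, ROO_LTR, DM1731_I-int and FROGGER_I-int, every one lay below, against 9.63%. The difference for Copia_I-int was -0.65, with a 95% interval from -1.44 to 0.15, so a difference of either sign remained possible, and for BEL_I-int it was -0.19 (-0.88 to 0.50). For NINJA_LTR it was 2.52 (0.98 to 4.06, adjusted p 0.124 in limma), for BATUMI_I-int 2.72 (0.93 to 4.51, adjusted p 0.149) and for ROO_LTR -1.09 (-1.84 to -0.33, adjusted p 0.174). In the same comparison 4 of 19 early zygotic genes fell in limma, run, Kr, odd and CG6885, against the 2.22% of all features called in either direction. The other 15 did not pass, the median of the 19 was -2.32 on the log2 scale, and their part in these differences was not tested.

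The genes of the silencing pathway itself were read from a list of 40, of which 38 were found and tested. It holds the partners of Piwi in transcriptional silencing, such as Panx, nxf2, arx, mael and egg, and the factors that make piRNAs, such as aub, AGO3, zuc, armi and rhi. In each line 1 of the 38 passed in limma, piwi, which fell, and 0 rose. In Piwi-MatKD_2, DESeq2 and edgeR each called shu as well, a co-chaperone of piRNA loading. Of all features, these tools called 8.36% and 3.77% there, in either direction. The list had median log2 fold changes of -0.068 for the former line and -0.058 for the latter. Of 8 germ plasm genes, which mark the pole of the egg where germ cells form, 7 were found and tested and 0 passed in limma in either line, with 0 in each at an unadjusted p under 0.05 and 0 with DESeq2 or edgeR. Their summed level, in normalised reads, was 98654 to 111607 in the controls, 95050 to 108256 in Piwi-MatKD_1 and 97011 to 133734 in Piwi-MatKD_2.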

How the data were processed

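RNA libraries were compared; small RNA of the series is counted per gene with no repeat entries and was not used. The deposited RNA table holds a normalised signal, read counts divided by 1 factor per library by the authors: in each library 100% of the values were a whole number of times its smallest one (tolerance 0.01), which recovered whole reads. Cutadapt, Bowtie 1.2.2, featureCounts and the build BDGP6 are named in the submitters' processing notes; how reads with several matches were counted is not given in the sources used here, so entries of related elements, and LTRs with identical copies, may share reads. Columns were matched to labels; those of Piwi-MatKD_2 were matched to the group alone. Limma 3.58.1 (eBayes with a trend, 1 spread over all 9 libraries) tested log2(value + 1) with Benjamini-Hochberg adjustment over 10767 features. Each SE thus carries the spread of all 3 groups. The added 1 can understate changes of low entries, but with a library at 0 the change could also come out larger. DIVER_LTR, at 0 in GFP-MatKD replicate 2, had a log2 fold change of 2.60 in Piwi-MatKD_1 in limma and 1.50 in DESeq2. Alternatives included edgeR 4.0.16 and DESeq2 1.42.0 on recovered reads, in R 4.3.3; the fit was tested on simulated data. Full values were given for entries past the threshold, the 3 marker entries and their partners. Members and lists were chosen with earlier results of these data known.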

Additional observations from a re-analysis of the deposited data

How the results depend on the processing

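Both parts of Copia, MAX and BEL, and BATUMI_LTR, kept their direction against GFP-MatKD in both lines under all alternatives. BATUMI_I-int did so in Piwi-MatKD_2 but not in Piwi-MatKD_1. With DESeq2, 5, 8 and 5 entries passed in Piwi-MatKD_1, in Piwi-MatKD_2 and between the lines, in place of 1, 4 and 0. The shares of all features were 0.808%, 8.36% and 7.49%, in place of 0.186%, 3.04% and 2.22%. With the libraries of both groups alone, 3 passed in Piwi-MatKD_1, where 0.267% of all features did. Without the rRNA-rich Piwi-MatKD_2 pair 3 passed in Piwi-MatKD_1, where 0.265% of all features did. In Piwi-MatKD_2 the median of the entries was then 0.26 on the log2 scale. Under quantile normalisation 1 passed between the lines, where 1.74% of all features did. Leaving out 1 library gave 0 to 3 entries in Piwi-MatKD_1, 2 to 7 in Piwi-MatKD_2 and 0 to 3 between the lines. The shares of all features were then 0.0472% to 0.273%, 1.1% to 3.76% and 0.887% to 3.21%. Omitting the library of 73.0 M reads gave the highest counts in Piwi-MatKD_2 and between the lines, 7 and 3. There 2.94% and 2.43% of all features passed. Counts of entries above every control were tried under settings chosen after seeing the data. They were 10 to 14 for Piwi-MatKD_1, where 4.01% to 21.7% of all features met the same condition. For Piwi-MatKD_2 they were 9 to 11, where 4.18% to 33.1% did. Among all features DESeq2 called 74, 811 and 686 where limma called 20, 327 and 239, the block called 3, and fits on both groups alone called 28, 212 and 65. The cause was not tested.

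The numbers were also fitted as a replicate block for Piwi-MatKD_1 against its controls, where 0 entries and 0.0286% of all features passed in limma. In that fit Copia_I-int had a log2 fold change of 2.94 with an adjusted p of 0.101 in limma. Libraries of the same number did not deviate together (mean correlation -0.338 across features), and 0 of 3 correlated best with their own number.

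Small values changed sign. Between the lines, BEL_LTR went to 0.41 under quantile normalisation, 0.068 in edgeR and 0.059 in DESeq2, with a range from -0.53 to 0.23 with a library left out. Copia_LTR went to 0.081 under quantile normalisation, with a range from -0.86 to 0.035, and BEL_I-int had one from -0.56 to 0.064, positive without the library of 73.0 M reads. BATUMI_I-int in Piwi-MatKD_1 ranged from -0.15, without GFP-MatKD replicate 2, to 0.57. None of these passed. Library totals as scaling moved the median of all features in Piwi-MatKD_2 to -0.19 and of the entries to 0.35. Depth limits the low entries, such as BEL_LTR with 1 to 46 reads per library, Copia_LTR with 5 to 60 and FROGGER_I-int with 1 to 57.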
